A study of Mus musculus with 36 samples.

Results

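The genes described here are 9 that let liver cells sense foreign chemicals and steroid hormones, or that serve the enzymes such sensors control. They are Nr1i2 (Pxr), Nr1i3 (Car), Rxra, Rxrb, Ahr, Arnt, Nfe2l2 (Nrf2), Esr1 and Por. They were chosen by symbol, and all 9 were found among the 21889 gene symbols of the deposited expression table. The table covers whole livers of male mice at 12 ages, with 3 mice per age. Their strain was C57BL/6 by the labels and C57BL/6J by the methods of the study. Counted back from adulthood, the ages were Days 60, 45, 30, 25, 20, 15, 10, 5, 3 and 1, Day 0, when newborns had not yet suckled, and GD17.5 in late gestation, labelled Day -2. The mice came from several litters, were fed standard chow with no treatment named, and those used from Day 25 on had been weaned after Day 20. Mice from Day 3 on were sampled at a fixed clock time, whereas Days 0 and 1 were timed from birth, so age and time of day cannot be told apart across that boundary.

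Pxr and Car are nuclear receptors that are activated by drugs, bile acids and other compounds and bind DNA as heterodimers with retinoid X receptors such as Rxra and Rxrb, switching on cytochrome P450, conjugation and transporter genes. Ahr, activated by planar aromatic compounds, pairs with Arnt, and Nrf2, held back by Keap1 until oxidants or electrophiles release it, pairs with small Maf proteins. Esr1 is the main estrogen receptor of liver, and Por is the flavoprotein that passes electrons from NADPH to microsomal P450s.

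Levels are given as FPKM, mapped fragments scaled to transcript length and to library size, so that genes can be compared per length. A gene was tested if its age mean reached 1 FPKM at some age, which held for 11149 genes. All 9 genes passed, but Esr1 reached 1 FPKM at 2 ages only, Ahr at 8 and Nr1i3 at 11, so these passed through the ages at which they were high. The test was limma on log2(FPKM + 1), and p-values were adjusted over all 11149 genes by the Benjamini-Hochberg method. A difference on this scale understates the change of a gene near or below 1 FPKM.

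The libraries differed in ways that touch the results. The summed FPKM of 8 hepatocyte markers was between 7711 and 9249 at GD17.5 and between 35680 and 79200 at all later ages, none of them being at 0 in any age. The sum of 8 erythroid markers was between 127200 and 185200 at GD17.5, between 60060 and 80440 at Day 0, and between 650 and 715 at Day 60, and that of 6 granulocyte markers was between 1639 and 3069 at GD17.5 and between 1.33 and 2.60 at Day 60. In whole liver, fewer cells of a type and less RNA per cell cannot be told apart. The sum of 5 skeletal muscle markers reached 1168 FPKM in Day 0 replicate 1, against 4.08 and 4.37 FPKM in the other Day 0 mice, and that of 5 exocrine pancreas markers ranged up to 12840 FPKM in Day 60 replicate 1. Genes with transcripts over 6000 bases were low relative to those under 1500 bases in Day 25 replicate 2 and Day 30 replicate 1, by 0.49 and 0.50 on the log2 scale against their age means. Pearson's r between replicates across genes was at least 0.952.

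**Figure D1:**
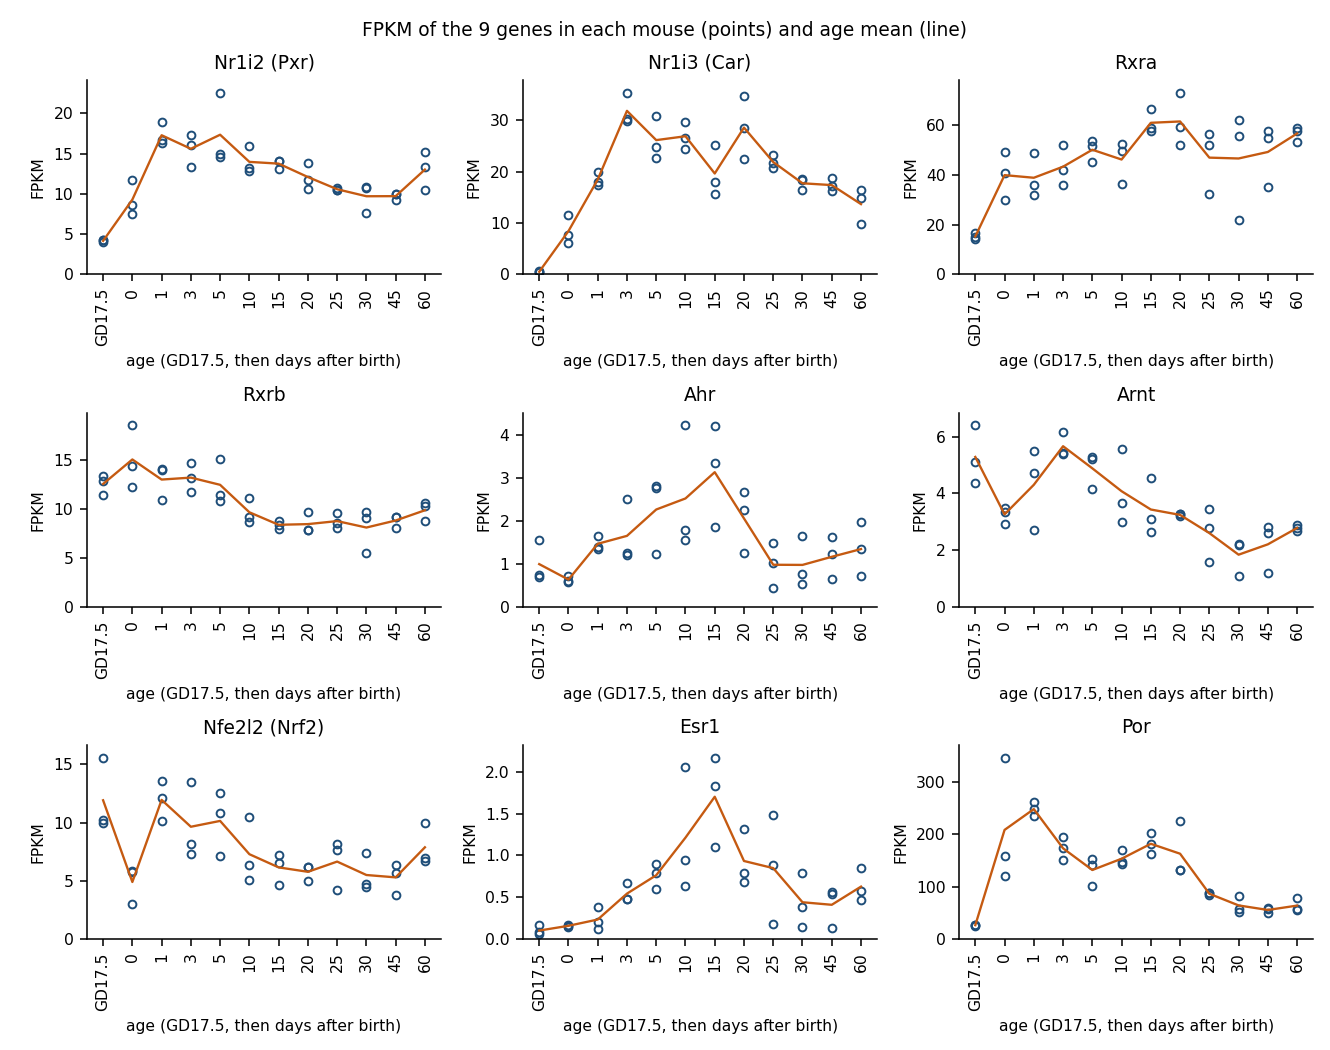
FPKM (linear axes from 0) of each of the 9 genes in the 36 livers, with 1 point per mouse and a line through the age means, for GD17.5 and then days after birth. Nr1i3 and Por started at their lowest levels at GD17.5 and Nfe2l2 dipped at Day 0, whereas Ahr and Esr1 peaked at Day 15.

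The 9 genes spanned a wide range of levels. Averaged over all 36 mice, Por stood at 129.9 FPKM and Rxra at 46.2 FPKM. Nr1i3, Nr1i2, Rxrb and Nfe2l2 followed at 19.25, 12.2, 10.7 and 7.76 FPKM. Arnt averaged 3.63 FPKM, Ahr 1.60 FPKM and Esr1 0.664 FPKM. The plot of FPKM by age shows that each gene had its own course. The ratio of the highest to the lowest age mean was 60.0 for Nr1i3, 16.9 for Esr1 and 9.38 for Por, and between 1.86 (Rxrb) and 4.95 (Ahr) for the other 6. Against Day 60, 8 of the 9 genes differed in at least one age, where 90.7% of all tested genes did, and 30 of the 99 pairs of a gene and an age differed, where 39.6% of all such pairs did. Leaving out 1 mouse at a time gave between 24 and 35 such pairs. The ages that differed numbered 9 of 11 for Nr1i3, 8 for Por, 4 for Nr1i2, 3 for Arnt, 2 each for Rxrb and Esr1, and 1 each for Rxra and Ahr. A call in at least one age rested on the smallest limma p of the 11 ages, adjusted over all genes and ages at once. Nfe2l2 differed at no age (smallest adjusted p = 0.0791) and at 1 age by the unadjusted p. It did differ in at least one age by this measure with a common upper quartile for every library (adjusted p = 0.00751). The same held with a block for the replicate number (adjusted p = 0.0429) and with the library trend on length and GC content removed (adjusted p = 0.0185). With the common upper quartile Rxrb (smallest adjusted p = 0.083) and Arnt (smallest adjusted p = 0.154) were not called in any age by this measure. Counted by age against Day 60, 6 of the 9 genes differed in the fetuses (75.1% of all tested genes) and 4 in newborns (63.9%). The count was 3 for Day 1 (65%), 4 for Day 3 (66%) and 4 for Day 5 (65.4%). It was 2 for Day 10 (46%), 4 for Day 15 (27.4%), 2 for Day 20 (15.9%) and 1 for Day 25 (7.42%). None differed, 0 of 9, for Days 30 (3.56%) and 45 (0.233%), where 1 gene each passed by the unadjusted limma p.

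From GD17.5 to Day 0, Nr1i2, Nr1i3, Rxra and Por rose, and Arnt and Nfe2l2 fell, so that 6 of the 9 genes changed, where 54.6% of all tested genes did (13.1% higher and 41.4% lower). The groups of 3 mice did not overlap for 6 of the 9 genes, where 60.8% of all genes did not.

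Nr1i3, which encodes Car, had 0.463, 0.603 and 0.525 FPKM in the 3 fetal livers. It had 7.69, 6.05 and 11.6 FPKM in the Day 0 mice and 19.9, 18.03 and 17.4 FPKM at Day 1. Every Day 0 mouse was above every fetus and below every Day 1 mouse. The rise to Day 0 was 2.58 on the log2 scale (SE 0.19, limma adjusted p = 5.99e-12, 15.9-fold in mean FPKM), and that from Day 0 to Day 1 was 1.08 (SE 0.19, adjusted p = 7.51e-05, 2.19-fold). Nr1i2, which encodes Pxr, had 3.996, 4.23 and 4.28 FPKM at GD17.5. Its Day 0 values were 11.7, 7.55 and 8.58 FPKM and its Day 1 values 18.9, 16.6 and 16.3 FPKM. The same order of the 3 ages held with no overlap, but the steps were smaller than those of Nr1i3, at 0.97 (SE 0.16, adjusted p = 1.24e-05) and 0.85 (SE 0.16, adjusted p = 0.000215) on the log2 scale.

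Por went from 25.0, 27.1 and 27.3 FPKM at GD17.5 to 347, 120.2 and 159 FPKM at Day 0. At Day 1 it had 248, 235 and 262 FPKM, its highest age mean (248 ± 13.4, SD, n = 3). All 3 Day 0 mice were above the fetuses, but they spread around the Day 1 mice. The rise to Day 0 was 2.78 on the log2 scale (SE 0.25, limma adjusted p = 5.36e-10, 7.88-fold in mean FPKM). The Day 0 mouse with 347 FPKM was the one with skeletal muscle markers, and without it the rise was 2.34. Without that mouse, the step from Day 0 to Day 1 also passed the test (0.84, adjusted p = 0.00329), where with all 3 mice it did not (0.40, SE 0.25, adjusted p = 0.22). The part of the muscle RNA in this was not tested.

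Rxra, the predominant retinoid X receptor of hepatocytes, had 16.6, 14.1 and 14.9 FPKM at GD17.5. It had 40.6, 30.0 and 48.9 FPKM at Day 0, all above the fetal values. It rose by 1.31 on the log2 scale (SE 0.27, limma adjusted p = 0.000228) and the step from there to Day 1 did not pass (-0.03, SE 0.27, adjusted p = 0.943). Rxrb, another retinoid X receptor, had 11.4, 12.9 and 13.3 FPKM before birth and 14.3, 12.2 and 18.5 FPKM at Day 0, with overlapping mice (0.23, SE 0.16, adjusted p = 0.237). With every library scaled to a common upper quartile, the difference of Rxrb at birth was 0.48 and passed the test (adjusted p = 0.003).

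Nfe2l2 moved the other way and back. It had 15.6, 9.95 and 10.2 FPKM at GD17.5, then 5.79, 5.86 and 3.04 FPKM at Day 0, then 13.6, 12.1 and 10.2 FPKM at Day 1. The Day 0 mice were below all mice of both neighbouring ages. The difference was -1.15 on the log2 scale (SE 0.28, limma adjusted p = 0.00105), and the rise to Day 1 was 1.17 (SE 0.28, adjusted p = 0.0022). The level of long relative to short transcripts in the libraries, which Nfe2l2 and Arnt followed within ages, was also lowest on average at Day 0, at -2.20 on the log2 scale against -1.82 at GD17.5 and -1.93 at Day 1. With the trend on transcript length and GC content removed from each library, the 2 differences of Nfe2l2 were -1.04 and 1.02 and both passed (adjusted p = 0.000456 and 0.00134). Arnt, at 6.41, 5.09 and 4.36 FPKM in the fetuses and 2.93, 3.35 and 3.50 FPKM at Day 0, fell with no overlap (-0.55, SE 0.23, adjusted p = 0.0412), but the call was lost without any 1 of 5 of the 6 mice (adjusted p between 0.0594 and 0.169). Ahr had 1.55, 0.732 and 0.696 FPKM before birth and 0.726, 0.606 and 0.565 FPKM at Day 0, and these overlapped (adjusted p = 0.461). From Day 0 to Day 1 Nr1i2, Nr1i3 and Nfe2l2 rose and 0 of the 9 genes fell, also by the unadjusted limma p, where 31.6% of all tested genes changed (23.7% higher and 7.88% lower), and 4 genes had no overlap, where 41.5% of all genes did.

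The rises at birth stood beside a hepatocyte marker sum that went from a middle value of 8240 FPKM to 43210 FPKM and an erythroid sum that went from 162000 to 76700 FPKM. Their part in the changes of the 9 genes was not tested. Scaling to the upper quartile, which lifts the all-gene median of this comparison from -0.29 to -0.08, left the 4 rises at 1.18 (Nr1i2), 2.61 (Nr1i3), 1.56 (Rxra) and 3.04 (Por) and the fall of Nfe2l2 at -0.89, all past the test. The fall of Arnt did not pass with this scaling (-0.32, limma adjusted p = 0.205) or with TPM (-0.64, adjusted p = 0.0811).

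**Figure D2:**
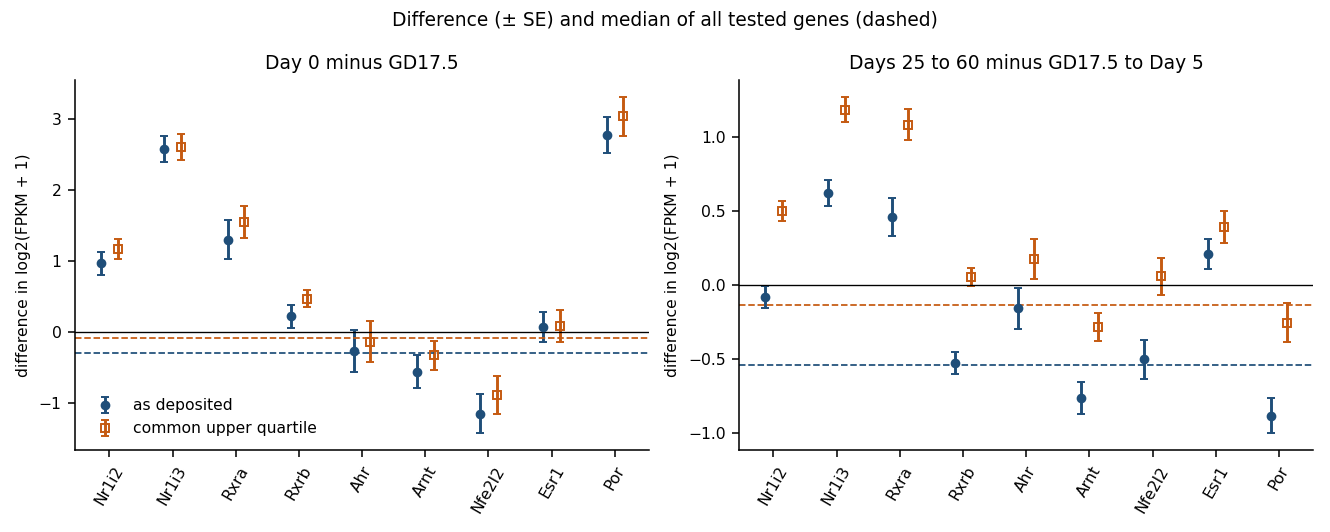
Difference in log2(FPKM + 1) with its standard error (SE) for the 9 genes, between Day 0 and GD17.5 (left) and between Days 25 to 60 and GD17.5 to Day 5 (right), for FPKM as deposited (circles) and scaled to a common upper quartile (squares), with dashed lines at the medians of all tested genes. The 4 rises at birth were above both medians, whereas in the late comparison the values of Nr1i2, Rxrb, Ahr and Nfe2l2 changed sign with the scaling.

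The DNA just before the starts of the 4 genes that rose at birth is shown because these genes moved together. The sequences come from RefSeq on GRCm38.p6, which gave 11 starts for 8 of the 9 genes, and each is the 250 bases before an annotated start, 5′ to 3′ on the strand of the gene. Capitals mark matches on either strand to AGGTCA, the core of nuclear receptor binding sites (in 14.02% of 32851 promoters of this length), to GCGTG, the core bound by Ahr with Arnt (in 28.2%), and to TGANNNNGC, the core of the antioxidant element bound by Nrf2 (in 35.2%).
Nr1i3, chr1:171213720-171213969, plus strand: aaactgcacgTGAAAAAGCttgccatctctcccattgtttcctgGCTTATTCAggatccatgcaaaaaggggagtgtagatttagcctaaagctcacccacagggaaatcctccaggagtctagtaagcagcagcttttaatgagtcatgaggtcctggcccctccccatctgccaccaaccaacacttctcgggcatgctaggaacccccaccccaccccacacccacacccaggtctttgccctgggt
Nr1i2, chr16:38294825-38295074, minus strand: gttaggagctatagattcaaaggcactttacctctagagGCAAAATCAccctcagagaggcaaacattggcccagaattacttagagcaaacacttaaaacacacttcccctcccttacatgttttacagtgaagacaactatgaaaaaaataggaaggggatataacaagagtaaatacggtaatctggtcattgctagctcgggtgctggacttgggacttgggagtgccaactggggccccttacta
Rxra, downstream start, chr2:27709042-27709291, plus strand: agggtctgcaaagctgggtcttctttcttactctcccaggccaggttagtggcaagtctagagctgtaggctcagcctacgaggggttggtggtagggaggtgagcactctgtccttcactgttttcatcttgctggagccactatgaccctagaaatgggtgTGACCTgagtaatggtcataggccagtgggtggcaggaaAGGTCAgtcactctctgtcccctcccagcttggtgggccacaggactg
Por, chr5:135688895-135689144, plus strand: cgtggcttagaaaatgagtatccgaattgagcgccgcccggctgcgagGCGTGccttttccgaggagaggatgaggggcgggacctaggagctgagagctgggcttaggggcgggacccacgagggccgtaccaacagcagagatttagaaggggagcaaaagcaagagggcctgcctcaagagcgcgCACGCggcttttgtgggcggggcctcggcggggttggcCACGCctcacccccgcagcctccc

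The capitals differed between the 4 windows. Nr1i3 held 2 matches to the Nrf2 core, beginning 240 and 206 bases before the start, and Nr1i2 held 1, beginning 211 bases before it. The downstream start of Rxra held 2 matches to the nuclear receptor core, 87 and 48 bases before the start, whereas its upstream start held none of the 3 motifs. Por held 3 matches to the Ahr-Arnt core, 202, 62 and 24 bases before the start. Among the other genes, Arnt held 1 Ahr-Arnt core and 2 Nrf2 cores, Nfe2l2 held 1 Nrf2 core, each of the 2 starts of Rxrb held 1 Ahr-Arnt core, and neither start of Esr1 held a match. No motif was shared by all 4 genes that rose. In the build of the deposited files, NCBI37/mm9, Nr1i3 lies at chr1:173144101-173150832, Nr1i2 at chr16:38248409-38294910, Rxra at chr2:27531960-27618477 and Por at chr5:136145903-136211196. The others lie at chr17:34168757-34175338 (Rxrb), chr12:36182646-36219710 (Ahr), chr3:95238310-95301162 (Arnt), chr2:75513570-75542698 (Nfe2l2) and chr10:5340927-5734948 (Esr1).

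After birth, Car overtook Pxr and peaked early. Nr1i3 had 30.3, 35.3 and 29.8 FPKM at Day 3, its highest age mean (31.8 ± 3.02, SD, n = 3). It had 22.4, 28.5 and 34.8 FPKM at Day 20 and 14.9, 16.3 and 9.81 FPKM at Day 60. All Day 3 and Day 20 mice were above all Day 60 mice, by 1.19 (SE 0.19, limma adjusted p = 2.53e-06) and 1.02 (SE 0.19, adjusted p = 0.000188) on the log2 scale. In order of mean, GD17.5 and Day 0 were lowest, followed by Days 60, 45, 30, 1, 15, 25, 5, 10 and 20, with Day 3 highest. Only GD17.5 was separate from its neighbour in that order, since in the other 10 of the 11 pairs the mice of both ages overlapped. Over all tested genes 12.1% of such pairs were separate. Nr1i2 was highest at Day 5, with 14.9, 22.5 and 14.6 FPKM, and had 10.5, 13.4 and 15.2 FPKM at Day 60. The 2 separate pairs of neighbours for Nr1i2 were GD17.5 below Day 0, and Day 45 (9.72 FPKM) below Day 25 (10.6 FPKM). Its Day 30 mean was 9.71 FPKM and it reached 13.02 FPKM by Day 60, and apart from GD17.5 and Day 0 it differed from Day 60 only at Days 1 and 5, by 0.39 and 0.37 (adjusted p = 0.0316 and 0.0399).

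Por was high throughout suckling and lower after it. It had 162, 182 and 202 FPKM at Day 15 and 132, 132 and 225 FPKM at Day 20. It then had 87.8, 88.7 and 83.4 FPKM at Day 25 and 57.2, 55.9 and 78.7 FPKM at Day 60. No mouse of Days 25 to 60 (50.5 to 88.7 FPKM) reached the lowest mouse of Days 10 to 20 (132 FPKM). The difference between these age groups was -1.30 on the log2 scale (SE 0.13, limma adjusted p = 3.59e-09), or -1.15 with a common upper quartile. The median over all tested genes was -0.19, or -0.115 with that scaling. The share of all genes separated between these groups was not counted. The single step from Day 20 to Day 25 was -0.86 (SE 0.25, adjusted p = 0.0311), the only change among the 9 genes across weaning, where 7.19% of all tested genes changed (3.94% higher and 3.26% lower), and the only one whose mice did not overlap, where 26.2% of all genes did not. That call was lost without Day 20 replicate 3 (-0.60, adjusted p = 0.24), without any 1 of the Day 25 mice (adjusted p between 0.0673 and 0.0906) and with a common upper quartile (-0.82, adjusted p = 0.0536). In order of mean Por had 3 separate neighbours, GD17.5 below Day 45, Day 30 below Day 25 and Day 25 below Day 5, where 12.1% of all such pairs over all genes were separate.

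Rxra passed the test against Day 60 at no age after birth. Its highest age mean was 61.3 ± 10.5 FPKM (SD, n = 3) at Day 20, with 72.7, 52.0 and 59.2 FPKM. At Day 60 it had 58.8, 57.6 and 53.1 FPKM, and by limma GD17.5 was the only age below these. At Days 0, 1, 3 and 10 every mouse was also below the lowest Day 60 mouse, with highest values of 48.9, 48.6, 51.9 and 52.4 FPKM. These differences were -0.52, -0.55, -0.39 and -0.31 on the log2 scale (SE 0.27) and did not pass (limma adjusted p between 0.0741 and 0.383). In order of mean, GD17.5 was separate from its neighbour (Day 1) and the other 10 pairs overlapped, where 12.1% of such pairs over all genes were separate. The lowest mouse after birth was Day 30 replicate 1 with 21.7 FPKM, which was also the library lowest in long transcripts, while the other 2 Day 30 mice had 55.6 and 62.1 FPKM. Rxrb had its highest mean at Day 0, with 15.0 ± 3.198 FPKM, and its lowest at Day 30, with 8.08 ± 2.24 FPKM (SD, n = 3). In order of mean, its 1 separate pair of neighbours was Day 60 below Day 5. The 15 mice of GD17.5 to Day 5 lay between 10.8 and 18.5 FPKM and the 12 mice of Days 25 to 60 between 5.52 and 10.5 FPKM, with no overlap. This difference of -0.53 on the log2 scale was near the median of all tested genes (-0.54), and it was 0.054 with a common upper quartile. The share of all genes separated in this way was not counted.

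Ahr and Esr1 were low and both had their highest age mean at Day 15. The level of long relative to short transcripts, which both genes followed within ages, was also highest on average at Day 15, at -1.63 (log2). Its part in these peaks was not tested. With the trend on transcript length and GC content removed, both genes differed from Day 60 over all ages together (limma adjusted p = 0.000582 and 6.16e-05). Ahr had 4.20, 3.34 and 1.86 FPKM at Day 15 and 1.34, 1.96 and 0.721 FPKM at Day 60. The Day 15 and Day 60 mice overlapped, yet the difference was 0.81 (SE 0.29, limma adjusted p = 0.0379). Esr1 had 0.163, 0.0839 and 0.0567 FPKM at GD17.5 and 2.17, 1.83 and 1.11 FPKM at Day 15. It had 0.463, 0.570 and 0.848 FPKM at Day 60, all below Day 15 (0.72, SE 0.22, adjusted p = 0.0129) and above GD17.5. No pair of neighbouring ages in order of mean was separate for Ahr, Esr1 or Nfe2l2, where 12.1% of such pairs over all genes were. Arnt was highest at Day 3, with 6.17, 5.44 and 5.39 FPKM, and lowest at Day 30, with 1.09, 2.19 and 2.23 FPKM. These groups did not overlap, the 1 separate pair of neighbours was Day 60 below Day 20, and Arnt differed from Day 60 (2.79, 2.68 and 2.88 FPKM) at GD17.5, Day 3 and Day 5. The mouse with 1.09 FPKM of Arnt was Day 30 replicate 1, the library lowest in long transcripts.

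The study sorted the ages into a perinatal group up to Day 5, a group of Days 10, 15 and 20, and a group from Day 25 on. That sorting came from energy metabolism genes in these same libraries, so the groups are not independent of them. They were compared through equally weighted age means. Between Days 10 to 20 and GD17.5 to Day 5 all 9 genes changed by limma, 6 higher and 3 lower, where 75.8% of all tested genes changed (14.6% higher and 61.2% lower). Nr1i3 was higher by 1.09, Esr1 by 0.73, Rxra by 0.66, Ahr by 0.57, Por by 0.41 and Nr1i2 by 0.20 on the log2 scale, with SE from 0.08 to 0.15. For Por (166.3 against 157.8 FPKM) and Nr1i2 (13.27 against 12.73 FPKM) the group means were close. With each age counted as 1 unit, an exact two-sided permutation test over age means passed 0 of the 9 genes. Its adjusted p was 0.870 for Por, 0.829 for Nr1i2 and 0.530 for Nr1i3, and the smallest p that 56 splits allow is 0.0179. Rxrb had that smallest p, and its adjusted p by this permutation test was 0.0549, so no gene could have passed. The 3 lower genes as deposited were Rxrb (-0.53), Nfe2l2 (-0.48) and Arnt (-0.30), and with a common upper quartile none of these 3 passed and Arnt was at 0.093, whereas the 6 higher genes passed under both. The calls of Nr1i2 and Arnt were each lost without either of 2 mice, for Nr1i2 without Day 10 replicate 1 or Day 20 replicate 3 and for Arnt without Day 10 replicate 3 or Day 15 replicate 3.

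Between Days 25 to 60 and Days 10 to 20, 6 genes were lower and 0 higher (0 also by the unadjusted limma p), where 57.3% of all tested genes changed (44.9% lower and 12.4% higher). Beside Por, the lower genes were Ahr (-0.73, SE 0.16), Esr1 (-0.52, SE 0.12), Nr1i3 (-0.47, SE 0.10), Arnt (-0.46, SE 0.12) and Nr1i2 (-0.29, SE 0.09), and with a common upper quartile Nr1i2 was at -0.16 and no longer passed (adjusted p = 0.073). Rxra (-0.20), Rxrb (0.00) and Nfe2l2 (-0.03) did not pass.

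Between Days 25 to 60 and GD17.5 to Day 5, 2 genes were higher, where 15.5% of all tested genes were, and 4 were lower, where 70.2% were (85.7% in either direction). The median of all tested genes in this comparison was -0.54 as deposited and -0.14 with a common upper quartile, so a gene at -0.54 moved with the rest. Nr1i3 was higher by 0.62 (SE 0.09, limma adjusted p = 2.28e-07) and Rxra by 0.46 (SE 0.13, adjusted p = 0.00171), and both were higher under each scaling, by 1.18 and 1.08 with a common upper quartile. Arnt was at -0.76 (SE 0.11) as deposited and at -0.29 after scaling, lower and past the test under both. Por (-0.89, SE 0.12) did not pass after scaling (-0.26, adjusted p = 0.0725). Rxrb (-0.53) and Nfe2l2 (-0.50) were lower as deposited but at 0.054 and 0.056 after scaling. Nr1i2 was at -0.08 as deposited and at 0.50 after scaling, where it passed (adjusted p = 7.86e-08), and Ahr went from -0.16 to 0.18 and passed under neither. Esr1 was at 0.21 (adjusted p = 0.0606), and it passed after scaling (0.39) and without the 2 libraries low in long transcripts (0.32, adjusted p = 0.0026). It also passed by limma with 0.1 in place of 1 added to FPKM (0.60, adjusted p = 0.0225) and with TPM (0.41, adjusted p = 0.0286). The same held with a replicate block (adjusted p = 0.0461) and with the length and GC trend removed (0.17, adjusted p = 0.0152). With each age counted as 1 unit it did not pass (exact permutation test, adjusted p = 0.278).

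For Nr1i3 the mean FPKM of these age groups was nearly the same, 17.7 FPKM late and 17.1 FPKM early, as the early mice ran from 0.463 to 35.3 FPKM. With each age counted as 1 unit, the exact two-sided permutation test over age means gave adjusted p = 0.711 for Nr1i3 and 0.218 for Rxra, whereas Rxrb (adjusted p = 0.019) and Arnt (adjusted p = 0.0281) kept their calls as deposited.

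A ratio of 2 genes within a mouse does not depend on the scaling of its library, and 3 such ratios were compared over the 5 early and 4 late ages. Rxra to Rxrb averaged 1.23 in the fetuses (1.10 to 1.46) and 2.64 in newborns, and later 7.27 (Day 15) and 5.80 (Day 60). The mean ratio was 2.84 early and 5.56 late, a log2 difference of 1.05 (exact permutation test over age means, two-sided, p = 0.0159, adjusted p = 0.0476 over the 3 ratios, 126 splits). All 4 late age means were above all 5 early ones, and a p as small as 0.00794 was possible with these splits. Single mice overlapped, since the late ones ran from 3.78 to 7.00 and the early ones from 1.10 to 4.66. The late mice below 4.66 were Day 25 replicate 2 (3.78), Day 30 replicate 1 (3.94) and Day 45 replicate 3 (4.32). Their libraries were also low in long transcripts, by -0.49, -0.50 and -0.39 (log2) against their age means. Rxra followed that level more than Rxrb did, and its part in the ratio was not tested. Expressed as a share, Rxra made up 54.8% ± 3.89 of the summed FPKM of Rxra and Rxrb in the fetuses and 72.5% ± 1.46 in newborns (SD, n = 3). Its share was 87.9% ± 0.548 by Day 15 and 85.1% ± 1.84 in the oldest mice. With GD17.5 left out the difference was 0.78, with the smallest p that the remaining 70 splits allow (exact permutation p = 0.0286, adjusted p = 0.0857), so the ratio could not have passed there beside the other 2 ratios.

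Ahr to Arnt averaged 0.182 before birth, was 0.901 by Day 15 and ended at 0.488. Its log2 difference between late and early ages was 0.73, which did not pass (exact permutation p = 0.0635, adjusted p = 0.0952), and Arnt was the more abundant of the pair per length in every age mean. Nr1i3 to Nr1i2 averaged 0.127 in the fetuses and 0.934 in newborns. It averaged 2.05 by Day 3, 2.345 by Day 20 and 1.09 in the oldest mice. Pxr led Car at GD17.5 and in the mean of Day 0, and Car led from Day 1 on in every age mean, but the late against early difference of 0.99 did not pass (exact permutation p = 0.238). The plot of the 3 ratios shows the Day 15 and Day 20 maxima.

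**Figure D3:**
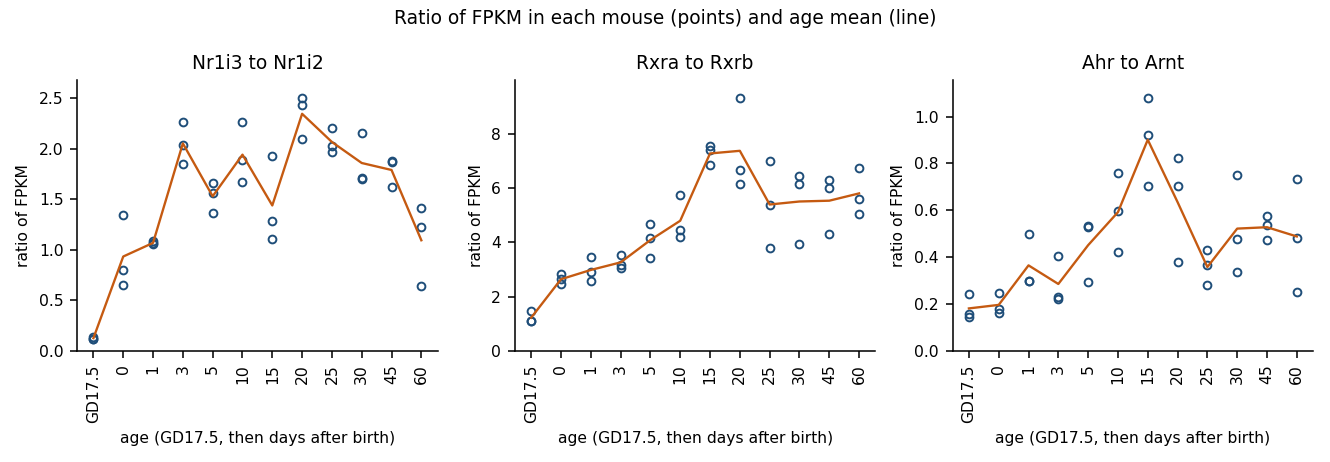
Ratio of FPKM in each of the 36 mice (points, linear axis from 0) and age mean (line) for Nr1i3 to Nr1i2, Rxra to Rxrb and Ahr to Arnt. Rxra to Rxrb averaged 1.23 at GD17.5 and 7.37 at Day 20, and Nr1i3 to Nr1i2 was back at 1.09 at Day 60.

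The spread between mice of an age was not the same for the 9 genes. The median coefficient of variation over the 12 ages was 45.3% for Esr1, 43.3% for Ahr, 27.02% for Nfe2l2 and 24.3% for Arnt, against 18.8% for Rxra and between 11.7% and 12.4% for Nr1i2, Nr1i3, Rxrb and Por. For Esr1 at GD17.5 an estimated 51.6 fragments per mouse gave a counting error of 13.9%, where the mice varied by 54.4%. For Ahr at Day 0 the estimate was 283 fragments and 5.95%, where the mice varied by 13.3%. For Nr1i3 at GD17.5, with an estimated 60.5 fragments, both were alike (12.9% by counting and 13.3% measured). The within-age deviations of the 4 most variable genes went with the level of long transcripts in the library. Pearson's r over the 36 mice was 0.88 for Arnt (4325 bases), 0.86 for Ahr (5548 bases), 0.81 for Nfe2l2 (2475 bases) and 0.79 for Esr1 (6339 bases). It was 0.57 for Rxra (4905 bases) and between -0.41 and 0.04 for Por, Nr1i2, Rxrb and Nr1i3, where the median over all tested genes was 0.35 and that over genes above 4000 bases 0.75. These values share the library and are given as a description. Nfe2l2 was shorter than Nr1i2 (2553 bases), Rxrb (2623 bases) and Por (2636 bases), whose deviations did not rise with that level. GC content was between 45.35% (Esr1) and 47.91% (Arnt) for Esr1, Ahr, Nfe2l2 and Arnt. For the other genes it was between 53.19% (Nr1i2) and 61.53% (Rxrb). The parts of length and GC content were not tested apart. With the trend on length and GC content removed from each library, 48 of 54 results (9 genes in 6 comparisons) kept their direction and call, 3 gained a call and 3 that had not passed changed sign.

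**Figure D4:**
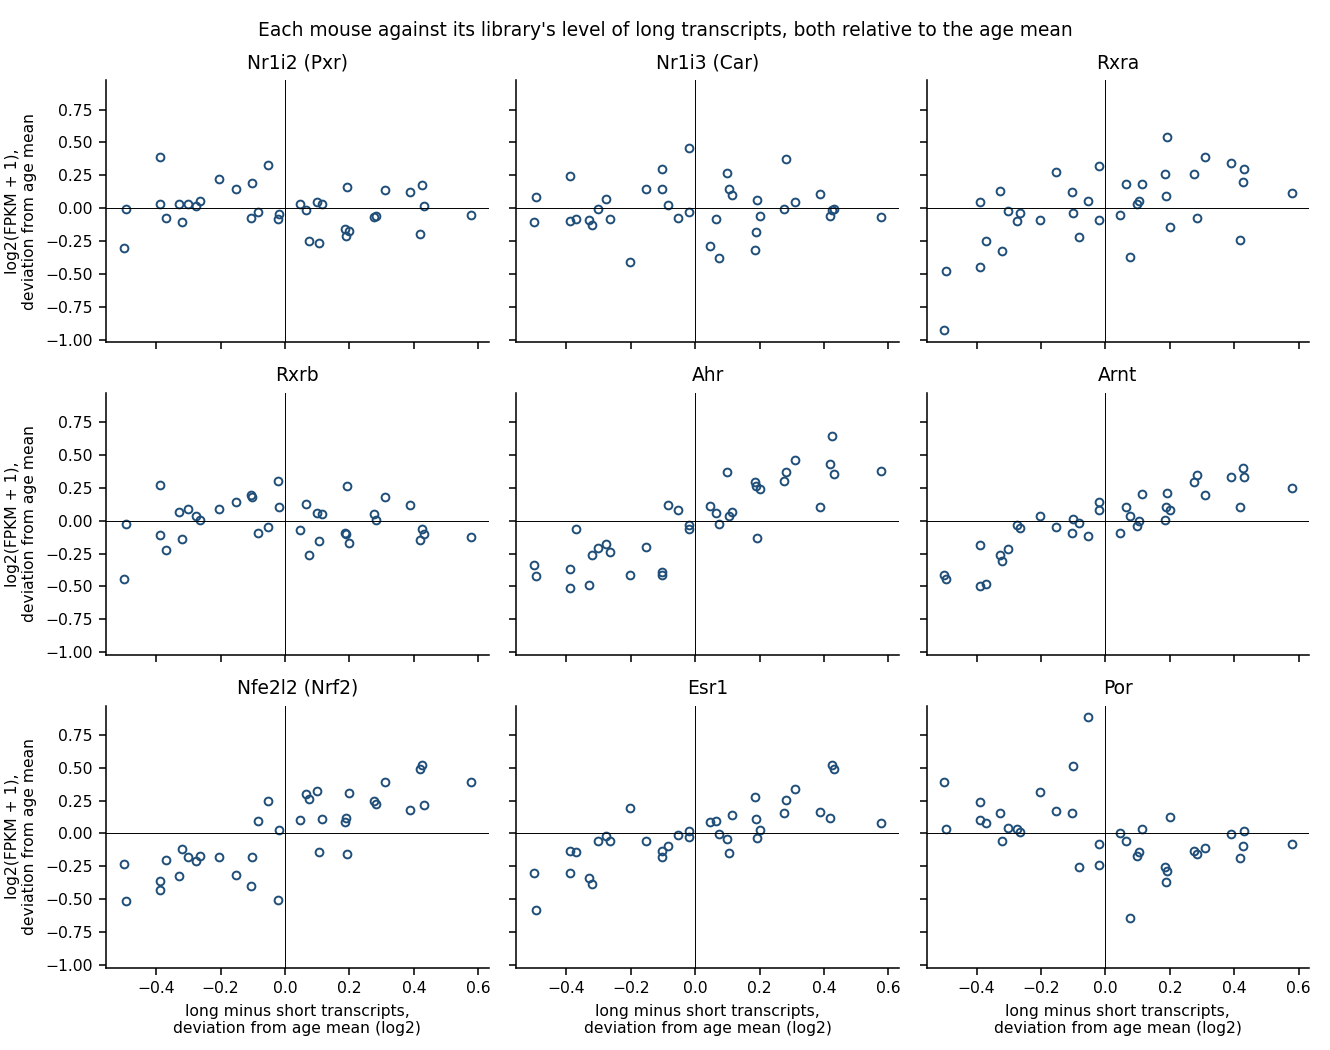
Deviation of each mouse from its age mean in log2(FPKM + 1) of each gene (vertical axes) against the same deviation of the library's long minus short transcripts (horizontal axes, log2), with 36 mice per panel. Ahr, Arnt, Nfe2l2 and Esr1 rise from lower left to upper right, whereas Nr1i2, Nr1i3 and Rxrb show no slope to the eye.

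The genes around these sensors were described by lists, compared between Days 25 to 60 and GD17.5 to Day 5 by limma, where 15.5% of all tested genes were higher and 70.2% lower. Of 11 tested targets of Pxr and Car (12 listed), 8 were higher and 2 lower (9 and 2 with a common upper quartile), with a median of 2.25 on the log2 scale beside -0.54 over all tested genes. Cyp2c29, a P450 induced through Car, had 0.120 ± 0.0429 FPKM in the fetuses and 733 ± 222 FPKM in the oldest mice (SD, n = 3, late minus early 9.31, SE 0.11). Cyp3a11, the classic Pxr-inducible P450, had 9.30 ± 1.33 FPKM in the fetuses and 2187 ± 400 FPKM in the oldest mice (SD, n = 3, late minus early 3.83, SE 0.13). The 2 lower targets were Cyp2b9 (-1.05, SE 0.13) and the stress gene Gadd45b (-0.89, SE 0.07). At birth 5 of these 11 targets rose and 0 fell (0 also by the unadjusted p), where 13.1% of all tested genes rose and 41.4% fell.

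Of 4 tested Ahr targets (7 listed), 2 were higher and 1 lower, with a median of 0.57. Cyp1a2, a hepatic P450 of aromatic amine metabolism, had 0.179 ± 0.0155 FPKM in the fetuses and 437 ± 129 FPKM in the oldest mice (SD, n = 3, late minus early 5.25, SE 0.13), and Ugt1a6a, a glucuronosyltransferase, was higher by 1.30 (SE 0.23). Nqo1, a quinone reductase counted under Ahr and Nrf2, was lower as deposited (-0.56, SE 0.08) but not with a common upper quartile (-0.08, adjusted p = 0.372). Of 16 tested Nrf2 targets, 11 were higher and 4 lower (12 and 2 with a common upper quartile), with a median of 0.80. Gstm3, a glutathione transferase, rose by 3.21 (SE 0.14) and Me1, the NADP-dependent malic enzyme, by 2.96 (SE 0.08). Hmox1, which degrades heme, had a difference of -3.12 (SE 0.11), and G6pdx, the entry enzyme of the pentose phosphate pathway, had a difference of -2.63 (SE 0.09). Both fell between the same age groups as the erythroid marker sum, whose part was not tested.

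Of 10 tested electron carriers and partners of Por, 6 were higher and 3 lower (9 and 1 with a common upper quartile), with a median of 0.73. Pgrmc1, a heme-binding partner of P450s, had 31.4 ± 2.33 FPKM in the fetuses and 407 ± 72.3 FPKM in the oldest mice (SD, n = 3, late minus early 2.38, SE 0.14), and Cyb5b, the outer mitochondrial membrane cytochrome b5, was higher by 2.32 (SE 0.12). Hmox1, given above, had the largest fall of the list. Hmox2, the constitutive heme oxygenase, was lower as deposited (-0.29, SE 0.07) and higher with a common upper quartile (0.33, adjusted p = 0.000461). Across weaning, 4 of these 10 genes rose and 1 fell, where 3.94% of all tested genes rose and 3.26% fell.

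Of 14 tested dimer partners, chaperones and repressors, 2 were higher and 10 lower (5 and 3 with a common upper quartile), with a median of -0.56. These counts were close to the shares of all tested genes, 15.5% higher and 70.2% lower. Nr0b2 (Shp), an orphan receptor that represses other nuclear receptors, rose by 1.70 (SE 0.13) and Rxrg, the remaining retinoid X receptor, by 1.34 (SE 0.05), with 0.0232 ± 0.00957 FPKM in the fetuses and 1.84 ± 0.350 FPKM in the oldest mice (SD, n = 3). The small Maf proteins Mafk (-1.93, SE 0.07) and Maff (-1.52, SE 0.15) had the largest falls of the list. Of 7 tested coactivators and corepressors 5 were lower and 0 higher (0 also by the unadjusted p), with Ep300 at -0.77 (SE 0.14) and Ncoa3 at -0.54 (SE 0.10), and with a common upper quartile the counts were 1 lower and 1 higher. The count of lower genes was again close to the 70.2% of all tested genes.

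Of 10 tested receptors that, like Pxr and Car, pair with retinoid X receptors, 2 were higher and 3 lower (6 and 2 with a common upper quartile), with a median of -0.12. Nr1h3 (Lxra), the oxysterol receptor, rose by 1.08 (SE 0.11) and Nr1h4 (Fxr), the bile acid receptor, by 0.90 (SE 0.08). Thra, a thyroid hormone receptor, was lower, at -1.11 (SE 0.08), as was Rarg, a retinoic acid receptor, at -0.81 (SE 0.07). Of 9 listed genes for other steroid receptors and estrogen handling, 3 were tested and 1, Nr3c2, the mineralocorticoid receptor, was higher (0.29, SE 0.08), at 1.13 ± 0.261 FPKM in the oldest mice (SD, n = 3).

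The genes with a course most like each member were found by Pearson's r of log2(FPKM + 1) over the 36 mice, among 4950 genes averaging 5 FPKM or more, and are given as a description. For Nr1i2 these were Ccbl2, Cpt1a and Acadvl (0.93, 0.93 and 0.92). For Nr1i3 they were Hrg, Aqp9 and Hp (0.96, 0.95 and 0.95), all lowest at GD17.5 like Nr1i3. For Rxra they were Proz, Ugt1a1 and Faah (0.92, 0.92 and 0.91), again with their lowest means at GD17.5. Rxrb went with Lrp10, Vat1 and Mtmr14 (each 0.93), and Por with Itih3, Baiap2 and Apoa1 (0.90, 0.90 and 0.88). For the genes that moved with the level of long transcripts, the leaders were Rnf128, Rnf144b and Cdh2 for Ahr (0.88, 0.88 and 0.85), Fam168b, Prrc2b and Crkl for Arnt (0.96, 0.95 and 0.95), M6pr, Net1 and Rab1 for Nfe2l2 (0.93, 0.92 and 0.92), and Siae, Steap4 and S1pr1 for Esr1 (0.86, 0.86 and 0.84). Spearman's rho over the same mice ran from 0.68 (Rxra with Ugt1a1) to 0.93 (Rxrb with Vat1). For Nr1i3 with Hrg, Aqp9 and Hp it was 0.80, 0.79 and 0.73. Mice of an age and genes of a library share their level, so neighbours of this kind are not independent.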

How the data were processed

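Liver RNA of 36 male mice, 3 at each of 12 ages, was sequenced from poly(A) libraries (TruSeq), and per the labels reads were aligned with TopHat 1.2.0 to NCBI37/mm9 and gene levels estimated with Cufflinks 1.0.3, as the submitters' processing notes list them. The authors deposited these values as FPKM, 1 column per mouse, which is the only unit used. FPKM holds no counts, so depth was estimated from the steps between low values: 29 of 36 libraries showed a common step, with relative depths of 0.880 to 1.11, and of low values 63.7% came out whole to a tolerance of 0.1, too few to recover counts. The mean depth estimated from gene lengths was about 80.6 (in units of 1000000 fragments), and the precision computed from it covers counting error only.

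The 9 genes and all gene lists were chosen with earlier results of these data known. Genes whose age mean reached 1 FPKM at some age were fitted with limma 3.58.1 (lmFit, contrasts.fit, eBayes with trend) in R 4.3.3 on log2(FPKM + 1), all 36 mice in 1 model with a mean per age, two-sided, with Benjamini-Hochberg adjustment over all genes tested and a threshold of 0.05. The mice are separate animals whose litters are not given, so p-values measure the spread between mice. Ratios were compared by exact permutation of age means, with every split enumerated (Python 3.11.15, numpy 2.4.6). Named beside the 9 genes were, for each list, up to 2 of the largest rises and 2 of the largest falls that passed, and for each gene the 3 with the highest Pearson's r over the mice. Groups came from the age labels. Alternatives were the pseudocount (0.1), the filter (none, or 5 FPKM), scaling to a common upper quartile or to TPM, a replicate block, no mean-variance trend, each mouse left out, age means as units and, chosen after seeing the data, removal of a library trend with length and GC content and leaving out the 2 libraries low in long transcripts. The fit was tested on simulated data with known changes. Positions come from GENCODE M1 and promoters from RefSeq. All 36 columns of the table were used, and the table held no comparisons of the authors.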

Additional observations from a re-analysis of the deposited data

How the results depend on the processing

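Beside the results as reported, the number of genes higher at Days 25 to 60 than at GD17.5 to Day 5 went from 2 to 4 with a common upper quartile and to 0 with age means as units (exact permutation test), and the number lower went from 4 to 1 and to 2. With age means as units, the 9 genes changed between Days 10 to 20 and GD17.5 to Day 5 became 0, and so did the 6 between Days 25 to 60 and Days 10 to 20 (2 and 3 at the unadjusted p), where the smallest p that the 56 and 35 splits allow is 0.0179 and 0.0286. Genes at these smallest values had exact permutation adjusted p = 0.0549 and 0.084, so no gene could have passed in either comparison. The 1 gene changed from Day 20 to Day 25, Por, was lost (0 genes) without a filter, with a common upper quartile and without the 2 libraries low in long transcripts, and leaving out 1 mouse at a time gave 0 to 1. The ratio Rxra to Rxrb did not pass without GD17.5 (0.78, adjusted p = 0.0857), where its exact permutation p was the smallest that 70 splits allow (0.0286) and could not have passed beside the other 2 ratios, and the ratio Ahr to Arnt passed with a pseudocount of 1 before the ratio (0.61, adjusted p = 0.0238). The causes of the other changes were not tested.

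Signs turned as follows. With a common upper quartile, Nr1i2 was at 0.50, Rxrb at 0.054, Ahr at 0.18 and Nfe2l2 at 0.056 for Days 25 to 60 against GD17.5 to Day 5, Arnt at 0.093 for Days 10 to 20 against GD17.5 to Day 5, and Nfe2l2 at 0.099 for Days 25 to 60 against Days 10 to 20. With TPM, Nr1i2 was at 0.039 (late against early) and Rxra at 0.067 (Day 0 to Day 1). Without the length and GC trend, Ahr was at 0.033 (birth), Rxra at 0.15 and Esr1 at -0.11 (both Day 0 to Day 1). Without the 2 libraries low in long transcripts, Nfe2l2 was at 0.068 (Days 25 to 60 against Days 10 to 20) and Esr1 at 0.18 (Day 20 to Day 25). Of these, Arnt and, for late against early ages, Rxrb and Nfe2l2 had passed as deposited, and the others had not.

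Leaving out 1 mouse at a time also turned 6 results that had not passed: Rxrb (-0.031 to 0.058) and Nfe2l2 (-0.092 to 0.061) for Days 25 to 60 against Days 10 to 20, Rxra for Day 0 to Day 1 (-0.22 to 0.13), and Rxrb (-0.014 to 0.14), Nfe2l2 (-0.011 to 0.40) and Esr1 (-0.36 to 0.18) for Day 20 to Day 25.

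The replicate numbers were not taken to pair the mice, which are different animals with no shared litter or batch named. Deviations of same-numbered mice correlated from -0.68 to 0.83 (median 0.13, and -0.048 for different numbers), and 19 of 36 mice correlated best, on average, with mice of their own number, where 12 would with 3 unrelated numbers. Replicate 1 was above its age mean in long transcripts at 10 of 12 ages. With a replicate block, Nfe2l2 gained a call in at least one age against Day 60 (smallest limma adjusted p = 0.0429, 9 genes in place of 8). Of the results in the other 6 comparisons, 53 of 54 kept their call, and Esr1 passed for Days 25 to 60 against GD17.5 to Day 5 (0.21, adjusted p = 0.0461). Without the mean-variance trend all 54 kept their call, and with the 5 FPKM filter all 42 that could be fitted did. Ahr and Esr1, at few fragments and with a wide spread between mice, allow the least precise statements.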
